A study of Mus musculus with 40 samples.

Results

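The comparison described here asked what loss of Ttpa changed in the cerebellum of aged mice that ate no added α-tocopherol. It set 4 Ttpa-/- mice against 4 wild-type mice, all 29 months old, of the C57Bl/6 background and on the α-tocopherol-deficient (vitamin E deficient) diet, so that genotype was the labelled difference. The 8 arrays were chosen by genotype, diet, age and region from the 40 arrays of the series, which profiled cerebellum and cerebral cortex on Agilent single-colour arrays with 1 Cy3-labelled total RNA sample per array. For reference the text also gives wild-type cerebellum on the normal diet (36 mg α-tocopherol/kg), Ttpa-/- cerebellum on the supplemented diet (600 mg α-tocopherol/kg), and the same genotypes in cortex on the deficient diet, each with 4 mice of 29 months. The Ttpa-/- mice lack the gene in every cell, and whole cerebellum was profiled, so fewer cells of a type and less RNA per cell cannot be told apart. Values below are normalized levels, the log2 of a probe's processed signal less the log2 of that array's 75th percentile, and a change is the Ttpa-/- mean less the wild-type mean on that log2 scale.

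The labelled region fitted its markers. The mean level of 38 Purkinje cell markers was 3.35 to 3.62 in the 8 arrays and 0.27 to 0.81 in the cortex arrays, and Pcp2, a Purkinje cell protein, was at 7.72 to 8.10 against -1.01 to -0.14. The granule cell receptor subunit Gabra6 was at 4.91 to 5.14 in cerebellum and at -6.71 to -5.47 in cortex. Some features of the arrays touch the results below. Ttpa-/- replicate 2 lay farthest from its group (root mean square deviation 0.419, against 0.205 to 0.309 in the other 7 arrays), Ttpa-/- replicate 4 stood apart at single genes of chromosome 4, and wild-type replicate 1 was high for glial activation genes. The wild-type arrays (deficient and normal diet) shared 1 slide and the Ttpa-/- arrays (deficient and supplemented diet) shared another, so genotype and slide cannot be told apart in the cerebellum. In deficient-diet cortex the wild-type and Ttpa-/- arrays also lay on different slides, so the same holds there and for differences between the regions.

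Ttpa encodes the α-tocopherol transfer protein, a lipid carrier of the Sec14-like family that loads α-tocopherol for export from the liver and is also made in the brain. α-Tocopherol is the main form of vitamin E retained in tissues and stops chain reactions of lipid peroxidation in membranes. Human mutations of this gene cause ataxia with vitamin E deficiency, a disorder in which the cerebellum and its input tracts fail, and Purkinje cells, the output neurons of the cerebellar cortex, are among the cells affected.

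Of 30552 probes tested on the deficient diet, 923 were higher and 587 lower in Ttpa-/- cerebellum (fold change over 1.5 and limma adjusted p under 0.05). These counts are 3.02% and 1.92% of the probes tested, and 4.94% in either direction. Among the 1510 called probes, 683 carried a gene symbol, for 326 symbols higher and 325 lower. The higher probes held 387 lincRNA probes, 41.9% of them against 18.4% of all probes tested, and the lower probes held 119 (20.3%). The lower probes were dimmer, with a median level of -2.78 against -1.5 for the higher ones and -0.43 for all tested, and 48 of them were above background on no Ttpa-/- array. The balance of directions depended on the scaling. Higher calls were 61.1% of calls here, 72.9% after quantile normalization and 87.1% when arrays were scaled to their medians, a choice that moved the median change of all tested probes from -0.01 to 0.17. Wild-type replicate 1 also bore on the lower calls, which numbered 305 without it, 406 without wild-type replicate 2 and 1303 without wild-type replicate 4.

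Ttpa itself was lower in every Ttpa-/- array. Its probe (chromosome 4, 19957856 to 19957915, mm9, plus strand) read -4.29, -4.00, -3.39 and -3.43 in the 4 wild-type arrays, all above background, and -6.84, -7.04, -6.83 and -6.34 in the 4 Ttpa-/- arrays, none above background. The groups did not overlap, the fitted change was -2.98 ± 0.34 (SE, limma adjusted p = 5.05e-07), and against the background level this is at least 1.95-fold lower. An exact two-sided permutation test of the 4 and 4 values gave p = 0.0286, the smallest this design allows. The direction matched the genotype labels of all 8 arrays. A second Ttpa probe was dim in 7 of the 8 arrays, at -6.70 to -5.83 in the wild-type arrays, but read -2.67 and above background in Ttpa-/- replicate 2. Supplemented Ttpa-/- cerebellum read -6.47 to -5.00 on the first probe, with 1 of 4 arrays above background, and normal-diet wild-type cerebellum read -3.62 to -3.02.

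Near Ttpa, both probes of Car8 were lower. Car8 is a carbonic anhydrase-related protein without enzyme activity that Purkinje cells make in quantity and that binds the inositol trisphosphate receptor. Car8 (chromosome 4, 8070545 to 8070604) was at 4.12, 4.11, 4.40 and 4.90 in wild-type cerebellum and at 1.56, 1.44, 1.77 and 3.65 in Ttpa-/- cerebellum. The groups did not overlap, although Ttpa-/- replicate 4 lay close to the wild-type mice, and the change was -2.27 ± 0.48 (SE, limma adjusted p = 0.00182), or -2.79 without that array. A second Car8 probe changed by -2.25 ± 0.35 (adjusted p = 6.04e-05), and by -2.73 without replicate 4. Supplemented Ttpa-/- cerebellum was also low, at 1.67 to 1.88 against 4.59 to 4.79 in normal-diet wild type (change -2.89). In cortex, where the probe was dim, the change was -2.28.

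**Figure D1:**
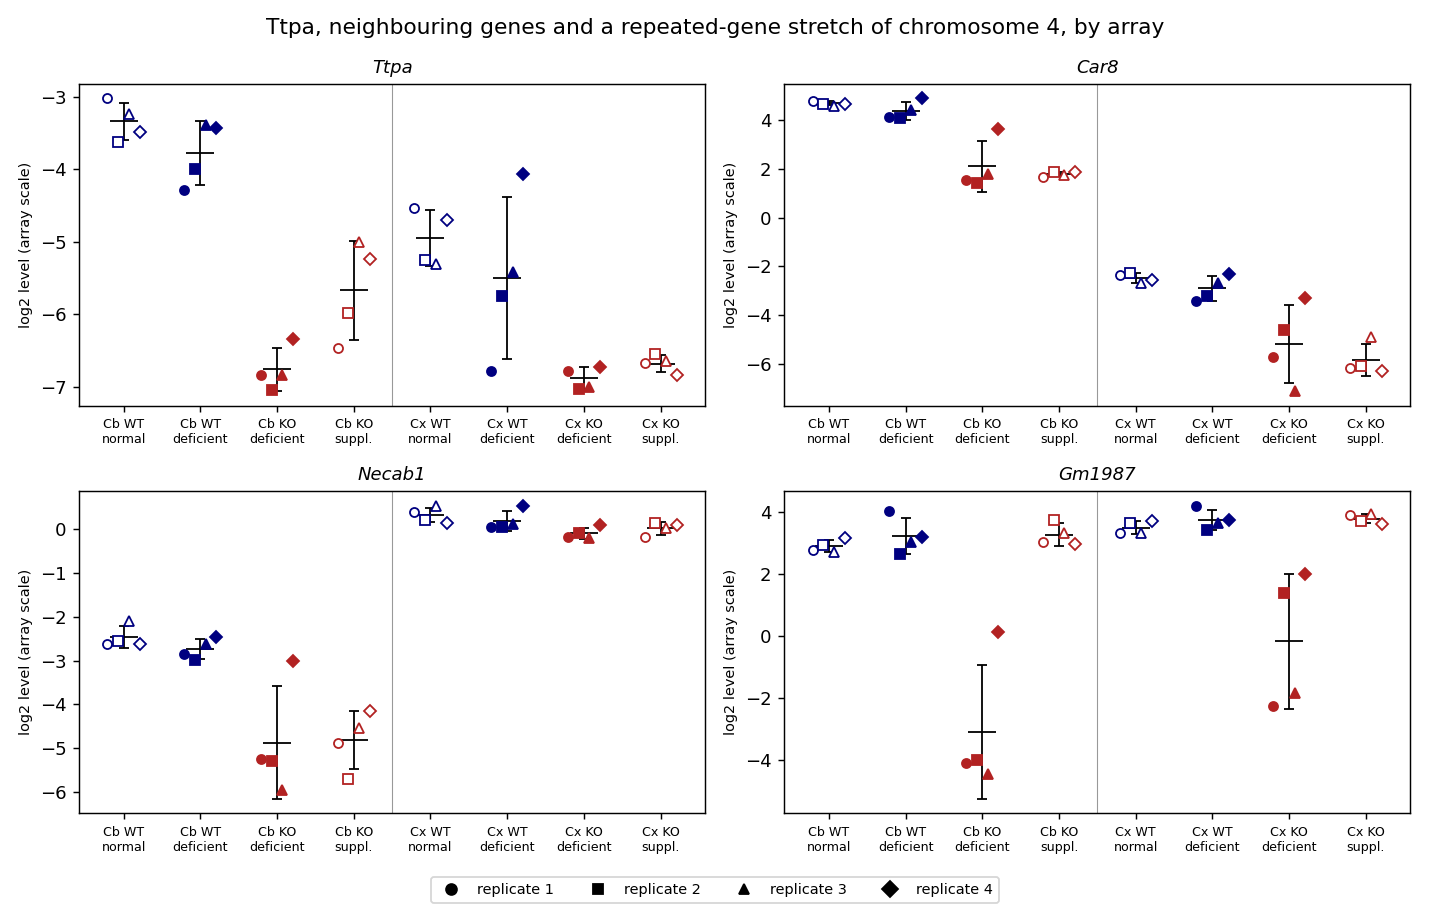
Normalized level (log2, relative to the array's 75th percentile) of Ttpa, Car8, Necab1 and Gm1987 in each array of 8 groups of 29-month-old mice, wild type in blue and Ttpa-/- in red, filled for the deficient diet and open for the normal or supplemented diet, with bars at the mean ± SD (n = 4). Deficient-diet Ttpa-/- cerebellum is low at all 4 genes, with replicate 4 at 3.65 for Car8, -3.02 for Necab1 and 0.14 for Gm1987, and Gm1987 is not low in supplemented Ttpa-/- cerebellum.

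Within 20 Mb of Ttpa, 6 probes were higher and 14 lower of 239 tested, or 8.37%, beside the 4.94% over all probes. The lower ones included Ttpa and both Car8 probes, and 11 others. Necab1, a neuronal calcium-binding protein, was at -2.85, -2.98, -2.61 and -2.47 in wild type and at -5.25, -5.28, -5.94 and -3.02 in Ttpa-/- cerebellum, with 1 of 4 Ttpa-/- arrays above background. The change was -2.14 ± 0.34 (adjusted p = 9.04e-05, or at least 4.0-fold lower without replicate 4, the array above background), with -2.34 between supplemented Ttpa-/- and normal-diet wild type and -0.28 in cortex, and the difference between regions passed the test (-1.87, adjusted p = 0.0489). The transcript 4930412C18Rik, lower in all 4 Ttpa-/- arrays, had a change of -2.52 (adjusted p = 0.000315). It was above background in Ttpa-/- replicate 4 alone, and without that array was at least 3.82-fold lower. Klhl32, a kelch-like protein, had the tightest values, 2.82 to 2.88 in wild type and 1.93 to 2.27 in Ttpa-/- arrays. Its change of -0.82 ± 0.08 (adjusted p = 9.8e-09) stood beside -0.68 in cortex (adjusted p = 2.25e-06) and -0.85 between supplemented Ttpa-/- and normal-diet wild type. A dimmer Klhl32 probe changed by -0.75 (adjusted p = 0.00262), with 0.02 in cortex. Map3k7, the kinase TAK1, disagreed between its probes, one at -0.84 (adjusted p = 6.55e-05), one at -0.44 and one at 0.50. Rises in this window included Gabrr2, a rho subunit of the GABA receptor (0.85, adjusted p = 0.00196), and Fhl5, a LIM domain coactivator (0.66, adjusted p = 0.000402).

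**Figure D2:**
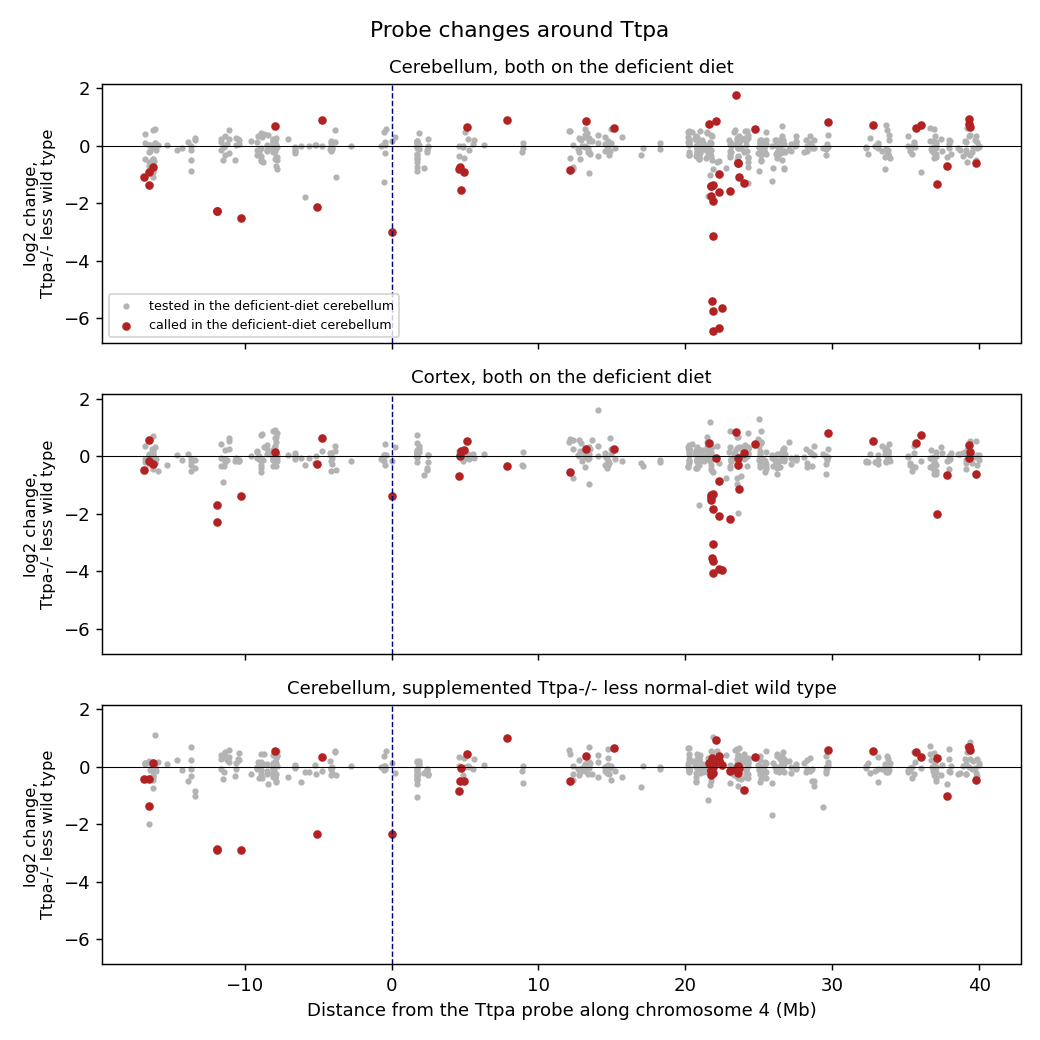
Log2 change of each tested chromosome 4 probe from 17 Mb before to 40 Mb after Ttpa (x axis, distance from Ttpa in Mb), for deficient-diet cerebellum, deficient-diet cortex and supplemented Ttpa-/- against normal-diet wild-type cerebellum, with the probes called in deficient-diet cerebellum in red. The group of low probes 20 to 25 Mb after Ttpa is seen in both deficient-diet comparisons and is near 0 in the third, where 0 of 145 probes there were lower.

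The deepest falls came from a stretch 20 to 25 Mb beyond Ttpa, where 18 of 142 tested probes were lower and 4 higher, 12.7% lower against 1.92% over all probes. The limits of this stretch were chosen after its falls were seen, so its share describes them and is no test. Some of its genes are also counted by more than 1 lower probe. Gm1987 (chromosome 4, 42232117 to 42232176), a copy of the chemokine gene Ccl21, was at 4.03, 2.64, 3.05 and 3.19 in wild type and at -4.08, -3.99, -4.45 and 0.14 in Ttpa-/- cerebellum, a change of -6.32 ± 0.70 (adjusted p = 2.37e-07; -7.40 without replicate 4). Cortex of the deficient-diet Ttpa-/- mice was uneven as well, at -2.24, 1.40, -1.83 and 2.01 against 3.44 to 4.21 in wild type. Supplemented Ttpa-/- cerebellum, at 2.97 to 3.76, was not low. The difference between the 2 cerebellar comparisons, in which a slide effect that adds to each array equally would cancel, was -6.69 (adjusted p = 0.000267). The 3 called probes of Gm13298 (now Fam205a2) changed by -6.45, -5.76 and -3.12, and 4933409K07Rik and LOC100503421 by -5.65 and -5.38. Gm3893, which the files do not place on a chromosome, changed by -5.27 and -3.53 on its probes. In each of these the Ttpa-/- replicate 4 value lay nearest the wild-type mice, as for the first Gm13298 probe, with 0.56 to 1.67 in wild type and -6.79, -7.04, -6.82 and -0.49 in Ttpa-/- arrays. Replicate 4 was the only Ttpa-/- array above background on this Gm13298 probe, and against the background level of the other 3 it was at least 59.5-fold lower. Another Gm13298 probe was not called (-0.79, adjusted p = 0.109), and 2 probes of Gm13308 (now Gm21953) were lower by smaller amounts (-1.93 and -1.36).

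This stretch carries near-identical gene copies, so the gene behind each of these probes is uncertain. Some other genes there, picked after their values were seen, moved with them, while most probes tested in the stretch were not called. Creb3, a membrane-bound transcription factor, was at 2.80, 2.62, 2.73 and 2.68 in wild type and at 1.16, 1.59, 1.57 and 2.11 in Ttpa-/- cerebellum, a change of -1.10 (adjusted p = 6.38e-07) beside -1.14 in cortex and -0.05 between supplemented Ttpa-/- and normal-diet wild type. Ccl27a, a chemokine, was lower on 3 probes (-1.39, -1.39 and -1.74), for which the comparison of supplemented Ttpa-/- with normal-diet wild type gave -0.10, -0.14 and -0.28. Ccl19, the other ligand of the Ccl21 receptor, was lower on 2 of 3 probes (-0.99 and -1.61).

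Most calls did not pass the thresholds in the other comparisons of these genotypes, which does not show that the effects differed. The 923 higher probes had a median change of 0.57 between supplemented Ttpa-/- and normal-diet wild-type cerebellum and 0.3 in deficient-diet cortex. The 587 lower probes had medians of -0.14 and -0.29, and all tested probes -0.02 and -0.01. In cortex on the deficient diet, measured on other arrays and slides, 445 of 29061 probes were higher (1.53%) and 446 lower (1.53%), 3.07% in all. There, 93 probes were higher in both regions, 93 of the 923 cerebellar calls and 20.9% of the cortical ones, and 99 were lower in both, 16.9% and 22.2%. Between supplemented Ttpa-/- and normal-diet wild-type cerebellum, on other arrays of the same slides, 1045 of 31265 probes were higher (3.34%) and 490 lower (1.57%), 4.91% in all. Here 392 probes were higher in both, 42.5% of the deficient-diet calls, but only 30 were lower in both, 5.11%. All 3 comparisons shared 31 higher probes, none on chromosome 4, and 5 lower ones, of which 4 lay on chromosome 4 (Car8, Klhl32, 4930412C18Rik and Palm2).

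Of the 12 largest rises with separate groups, 11 were also called higher between supplemented Ttpa-/- and normal-diet wild-type cerebellum. In cortex 10 of the 12 were too dim to test, so their cortical values below are not measured changes. Bex6, of the brain-expressed X-linked gene family, was at -6.63, -6.80, -6.97 and -6.82 in wild type and at -3.83, -4.17, -3.96 and -3.28 in Ttpa-/- cerebellum. It was above background on all 4 Ttpa-/- arrays and no wild-type array, at least 2.43-fold higher (change 2.99, adjusted p = 6.18e-10). The supplemented Ttpa-/- comparison gave 2.33, and Bex6 was above background on no deficient-diet cortex array. Cox17, a copper chaperone for cytochrome c oxidase, read -4.54 to -3.73 in wild type and -2.39 to -1.99 in Ttpa-/- arrays (2.13, adjusted p = 1.52e-07), but its other probe was dim and gave 0.37. Gm9372 was well above background throughout, at 0.67, 0.62, 0.58 and 0.37 against 1.81, 2.13, 2.04 and 2.23, a change of 1.49 ± 0.11 (adjusted p = 3.66e-11) beside 1.41 and 0.05 in the other comparisons.

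The remaining large rises were Snrpc, a U1 small nuclear ribonucleoprotein (2.24), Ly6f, a GPI-anchored surface protein (1.99), 1700071K01Rik (1.98), Asb7, a ubiquitin ligase adaptor (1.75), Abhd3, a phospholipase (1.66), Barhl2, a homeobox factor (1.64), Rpl26-ps2 (1.62), Olfr1173 (1.62) and Lilra5 (1.55). Snrpc and Ly6f were above background in 1 of 4 wild-type arrays, 1700071K01Rik and Asb7 in 2 of 4, and Abhd3, at least 2.25-fold higher, in none. A brighter Snrpc probe gave -0.02, and so did a second Asb7 probe. Asb7 was -1.33 between supplemented Ttpa-/- and normal-diet wild type, and its call was lost without wild-type replicate 1 (1.25) or 2 (1.60).

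**Figure D3:**
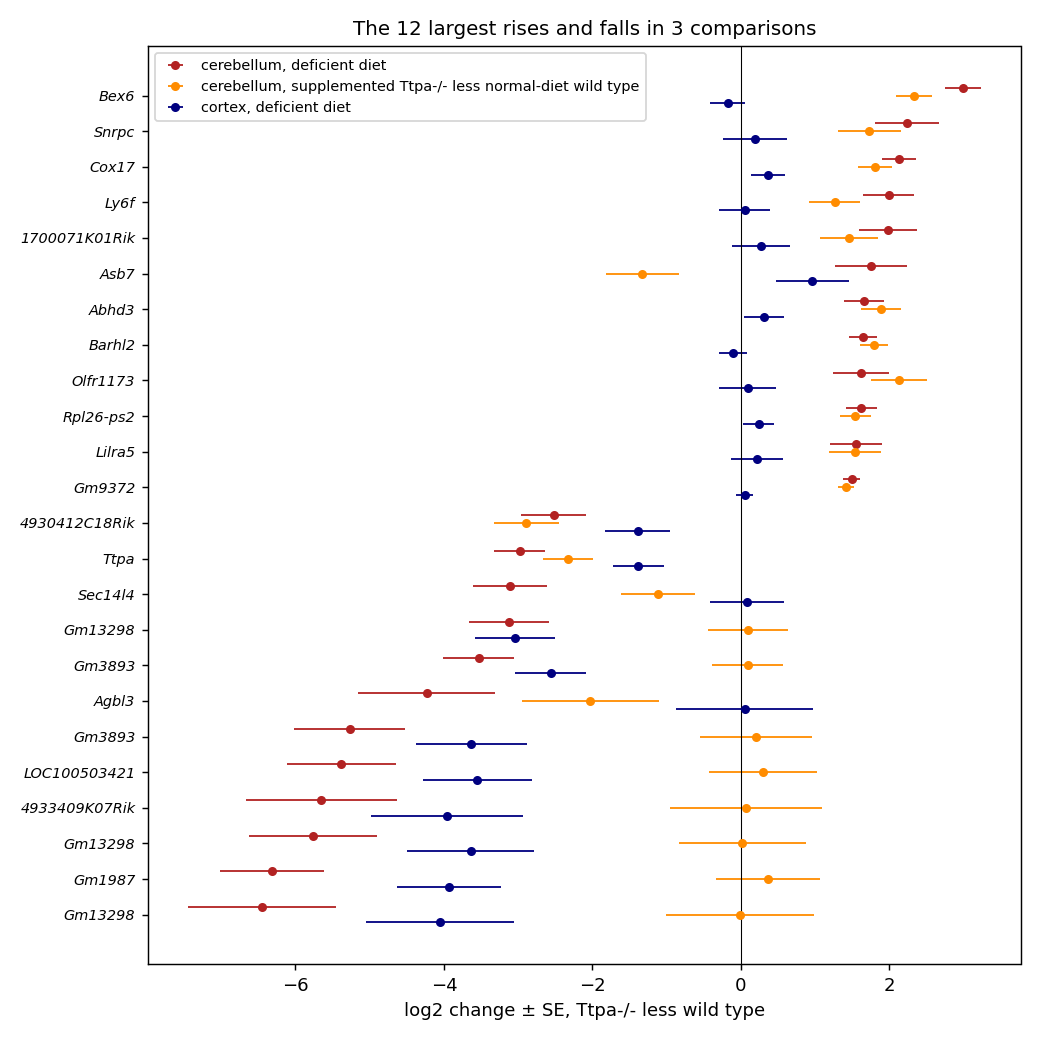
Log2 change ± SE of the 12 largest rises and 12 largest falls with a gene symbol and non-overlapping groups in deficient-diet cerebellum (red), beside supplemented Ttpa-/- against normal-diet wild-type cerebellum (orange) and deficient-diet cortex (navy), 1 row per probe. Of the 12 rises 11 are also called in orange, 10 were too dim in cortex for their navy points to measure a change, and the deepest falls are low in navy and near 0 in orange.

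Apart from chromosome 4 and the unplaced Gm3893, 2 genes were among the 12 largest falls. Agbl3, an enzyme that trims glutamate side chains from tubulin, was at -2.15, -1.24, -2.37 and -4.47 in wild type and not above background in any Ttpa-/- array, at least 4.54-fold lower (adjusted p = 0.00263), with 0.05 in cortex. Sec14l4, of the same lipid carrier family as the α-tocopherol transfer protein, was at -3.75, -2.66, -3.84 and -4.53 in wild type and also above background in no Ttpa-/- array, at least 2.06-fold lower (change -3.11, adjusted p = 0.000106). Cortex gave 0.08 for Sec14l4, and the difference between regions passed the test (-3.20, adjusted p = 0.0228). With no Ttpa-/- cerebellum array above background, the size of that difference was not measured.

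Some chaperones, among them Hspa5, Sdf2l1 and Pdia6 of the endoplasmic reticulum, were higher in Ttpa-/- cerebellum on the deficient diet. Cells raise these genes in the unfolded protein response, when unfolded proteins build up in the endoplasmic reticulum, and raise cytosolic heat shock proteins after heat or oxidative damage to proteins. Of 38 listed chaperones and their regulators 36 were tested, and 5 were higher and none lower, with a median change of 0.21 and 29 changes above 0, against 3.02% called higher and a median of -0.01 over all probes. Sdf2l1, a cofactor of BiP, was at -0.85, -0.58, -0.51 and -0.52 in wild type and at 0.89, 0.04, 0.43 and 0.39 in Ttpa-/- arrays, a rise of 1.06 ± 0.15 (adjusted p = 2.16e-05). Hspa5, which encodes BiP itself, was at 4.52, 4.59, 4.85 and 4.90 against 5.68, 5.24, 5.31 and 5.61, a rise of 0.74 ± 0.11 (adjusted p = 1.94e-05). Neither gene had overlapping groups, which also held for 13.5% of all probes tested. Pdia6, a protein disulfide isomerase, rose by 0.71 (adjusted p = 9.4e-05), with 0.50 on a second probe. Hsph1, a cytosolic exchange factor for Hsp70, rose by 0.67 (adjusted p = 0.000276), but not past the thresholds without wild-type replicate 1 (0.55). Manf, a secreted endoplasmic reticulum stress protein, named like the uncalled genes that follow after its value was seen, rose by 0.65 (adjusted p = 0.00083), or 0.50 and no longer called without Ttpa-/- replicate 1. Hsp90b1 (0.51), Xbp1 (0.48), Pdia4 (0.48) and Creld2 (0.39) did not pass the fold threshold, and the cytosolic chaperones Hspa8 (-0.06) and Hspa1a (0.13) and the stress factor Ddit3 (0.05) were close to 0.

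The promoters of Hspa5 and Pdia6 are shown because these called genes hold the endoplasmic reticulum stress element, the site through which the unfolded protein response is known to act on such genes. The 250 bases before each start site are from RefSeq (GRCm38.p6), written 5′ to 3′ along the gene, with the element, CCAAT and CCACG held apart by 9 bases of any kind, in capitals.
Hspa5 (chr2:34771840-34772089, plus strand): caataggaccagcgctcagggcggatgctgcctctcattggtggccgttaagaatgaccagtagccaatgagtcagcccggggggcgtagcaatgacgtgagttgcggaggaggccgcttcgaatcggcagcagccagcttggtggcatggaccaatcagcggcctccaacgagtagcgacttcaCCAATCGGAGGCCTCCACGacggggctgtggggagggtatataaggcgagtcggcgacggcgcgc
Pdia6 (chr12:17266339-17266588, plus strand): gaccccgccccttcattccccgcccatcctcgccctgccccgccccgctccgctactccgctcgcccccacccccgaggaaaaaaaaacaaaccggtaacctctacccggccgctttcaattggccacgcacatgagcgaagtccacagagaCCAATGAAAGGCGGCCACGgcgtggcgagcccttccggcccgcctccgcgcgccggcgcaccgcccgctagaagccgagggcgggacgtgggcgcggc

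The search covered both strands of the whole promoter sequences, which run past the start site, beyond the 250 bases shown. This element was found for 4 of the 30 listed chaperone genes with a promoter in the table (Hspa5, Hsp90b1, Pdia6 and Creld2). Among all 27025 genes it was found for 37, or 0.137%. The element starts at position -65 from the start site of Hspa5 and at -98 from that of Pdia6. In Hsp90b1 it reads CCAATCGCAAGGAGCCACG at position -212, with a second match, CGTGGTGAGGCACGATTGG, on the other strand at -107, and in Creld2 it reads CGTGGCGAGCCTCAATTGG, on the other strand. Sdf2l1 held no match in the sequence searched. A heat shock element, GAA, TTC and GAA each 2 bases apart, was in the sequences of Hspd1, Hspe1, Hsph1 and Chordc1 and of 0.662% of all genes. These matches describe the letters of the sequences searched and were not related to the changes by any test.

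The other cerebellar comparison did not give these rises. Hspa5 averaged 5.13 in normal-diet wild type, 4.71 in deficient-diet wild type, 5.46 in deficient-diet Ttpa-/- and 4.73 in supplemented Ttpa-/- cerebellum. Between supplemented Ttpa-/- and normal-diet wild type no chaperone was higher and 2 were lower, Hsph1 (-0.59) and Manf (-0.63), with a median of -0.25 over the list. In the test of the difference between the 2 cerebellar comparisons 14 chaperones were higher and none lower (median 0.49), where over all 31725 probes 1.47% were higher and 1.21% lower, 2.68% in all. Those 14 included Sdf2l1 (1.61), Manf (1.28), Hsph1 (1.26), Hspa5 (1.14) and Pdia6 (0.92). Cortex on the deficient diet gave 5 of 37 tested chaperones higher, with a median of 0.12, where 1.53% of all probes there were higher. Sdf2l1 read 0.75 in cortex, and Hspa5 read 0.50, under the fold threshold.

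The comparison of diets on each slide uses the same deficient-diet arrays and is given only side by side. Between deficient and supplemented Ttpa-/- cerebellum 0.134% of 30643 probes were higher and 0.209% lower, 0.343% in all, and 6 chaperones were among those higher, Hspa5 with 0.72 and Sdf2l1 with 0.99. Between deficient and normal-diet wild-type cerebellum 0.461% of 30990 probes were higher and 0.82% lower, 1.28% in all, and 2 chaperones were among those lower, Hspa5 reading -0.42 and Sdf2l1 -0.62. That second count of 397 calls fell to 12 without wild-type replicate 1 of the deficient diet. The mean level of the tested chaperones was 2.69 to 2.88 in the wild-type arrays and 2.97 to 3.14 in the Ttpa-/- arrays on the deficient diet, without overlap, 2.92 to 3.01 in normal-diet wild type and 2.68 to 2.76 in supplemented Ttpa-/- cerebellum.

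**Figure D4:**
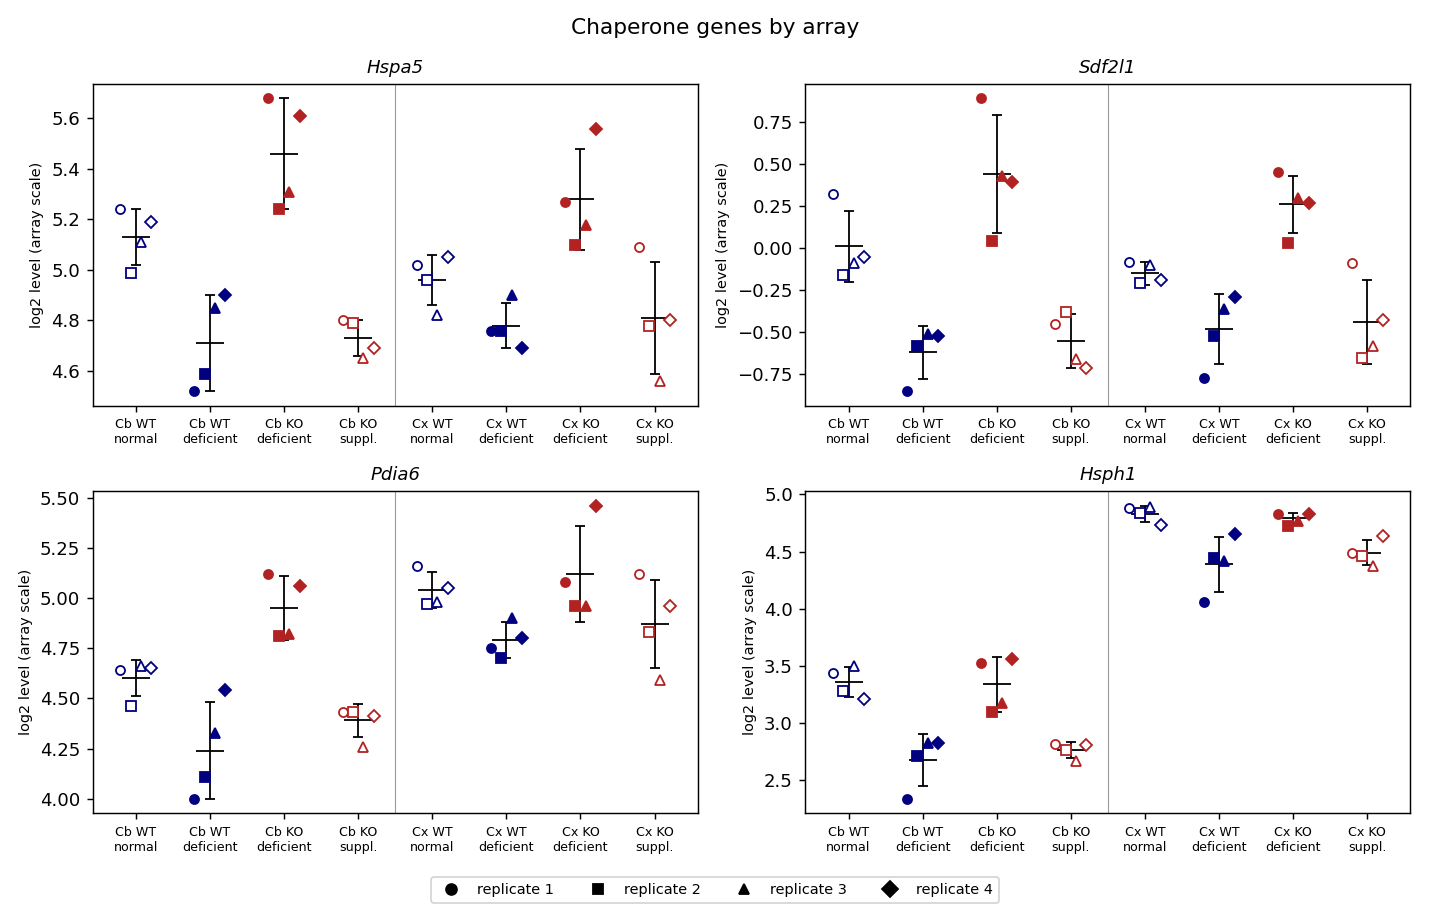
Normalized level (log2) of Hspa5, Sdf2l1, Pdia6 and Hsph1 in each array of 8 groups of 29-month-old mice, wild type in blue and Ttpa-/- in red, filled for the deficient diet and open for the normal or supplemented diet, with bars at the mean ± SD (n = 4). In cerebellum the deficient-diet Ttpa-/- arrays lie above the deficient-diet wild-type arrays for each gene, while supplemented Ttpa-/- cerebellum does not, at a mean of 4.73 for Hspa5 against 5.13 in normal-diet wild type.

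Of 20 tested genes that bind, move or break down vitamin E, none was higher and 3 were lower, where 1.92% of all probes were lower. Among the 3 was Ttpa, the gene knocked out, whose fall says nothing about the list. The others were Sec14l4, above background on no Ttpa-/- array, and Lpl. Lpl, the lipoprotein lipase that helps tissue take up α-tocopherol, changed by -0.65 (adjusted p = 0.0151), or by -0.56 and not called without Ttpa-/- replicate 3. The median over the list was 0.10. Of 47 antioxidant and glutathione enzymes only Gpx7, a glutathione peroxidase of the endoplasmic reticulum, passed (0.59, adjusted p = 0.00236), and without wild-type replicate 1 it did not (0.50). It was also lost without Ttpa-/- replicate 2 (0.57), Ttpa-/- replicate 4 (0.55) or wild-type replicate 2 (0.54). Over all probes 3.02% were higher. The median of this list was 0.03, so as a group these enzymes were close to the centre of all probes.

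Iron and lipid peroxidation genes gave 1 rise and 2 falls among 25 tested, where 3.02% of all probes were higher and 1.92% lower. Tfrc, the transferrin receptor that takes up iron, was at 1.67, 1.30, 0.96 and 0.79 in wild type and at 0.46, 0.50, 0.56 and 0.10 in Ttpa-/- cerebellum, a fall of 0.78 on the log2 scale (change -0.78, adjusted p = 0.000525). The other Tfrc probes gave -0.71 and -0.61, cortex gave -0.95, and the difference from the supplemented Ttpa-/- comparison was -0.99. Chac1, which degrades glutathione, rose from 0.84, 1.14, 1.01 and 1.30 to 1.41, 2.09, 2.00 and 1.83 (0.76, adjusted p = 0.000842). Ptgs2, the inducible cyclooxygenase, was at -0.91, -2.37, -3.44 and -3.76 in wild type and -4.96 to -3.52 in Ttpa-/- arrays, so the groups overlapped (change -1.57, adjusted p = 0.0035). Ptgs2 was above background in 3 of 4 Ttpa-/- arrays.

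Phospholipase A2 enzymes release fatty acids from membrane phospholipids, and 2 of 15 tested were lower, where 1.92% of all probes were. Pla2g4e was at 0.28, -0.30, -0.96 and -0.91 in wild type and at -2.36, -1.24, -1.78 and -2.39 in Ttpa-/- cerebellum (change -1.47, adjusted p = 0.000279), without overlap. Normal-diet wild type averaged -1.83 and supplemented Ttpa-/- cerebellum -0.57, so the other pair of groups ran in the opposite direction (1.26), and the difference of the comparisons was -2.73 (adjusted p = 0.000107). Pla2g2d (-0.81, adjusted p = 0.0166) was lost without wild-type replicate 3 (-0.44), and without Ttpa-/- replicate 3 or 4 (-0.72 each).

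The genes on which the study centred were mostly uncalled in this comparison. Pla2g3, a secreted phospholipase A2, was at 0.24, -0.46, -1.11 and -2.33 in wild type and at -2.06, -0.93, -1.95 and -1.75 in Ttpa-/- cerebellum, with wide overlap (change -0.76, limma adjusted p = 0.219; exact two-sided permutation p = 0.286, n = 4 and 4). Without wild-type replicate 4 the change of Pla2g3 was -1.23 and called. A second Pla2g3 probe read -1.21 but was too dim to test, above background on 3 wild-type arrays and no Ttpa-/- array. Ide, the insulin-degrading enzyme that breaks down amyloid-β, differed by 0.07 (adjusted p = 0.849). Tcp10c differed by -1.0 (adjusted p = 0.061), and by -1.39, called, without wild-type replicate 4. Its second probe read -1.36 but was also too dim to test, above background on 2 wild-type arrays and no Ttpa-/- array. The phospholipases Pla2g6 (0.11) and Pla2g5 (-0.04), the reference enzyme Gapdh (-0.04), Gm3448 (-0.24) and Tsga10 (-0.38) were not called either. Pla2g5 and Gapdh turned to 0.14 each under median scaling. Car8 was the only called gene of the 9 tested, and Fcgbp, Mybpc2 and Pla2g2e were too dim to test. None of 19 tested genes of amyloid precursor processing and clearance was called (median 0.07), with the smallest p-values for Adam10 (0.28), Ece2 (-0.37) and Lrp1 (0.14).

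Few neuronal markers of the cerebellum were called, where 4.94% of all probes were. Of 37 Purkinje cell markers tested, Car8 was lower and no other was called, the median change was 0.11, and the mean level ran from 3.62 to 3.89 in wild type and from 3.70 to 3.89 in Ttpa-/- arrays. Of 26 granule cell markers Fat2, a giant protocadherin, was higher (0.61, adjusted p = 0.0111), but not without wild-type replicate 1 (0.49), 2 (0.53) or 3 (0.57) or Ttpa-/- replicate 4 (0.55). None of 14 interneuron and unipolar brush cell markers was called. Of 39 glutamate and GABA receptor subunits Grin3a was higher (0.81), a call lost without wild-type replicate 1 (0.70) or 3 (0.77) or Ttpa-/- replicate 2 (0.66) or 3 (0.69).

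Few genes of the glial activation lists were called, where 3.02% of all probes were higher and 1.92% lower. Complement genes had 0 of 18 called and 0 of 18 changes above 0 (median -0.27), with -0.52 for the C1q chain C1qb (adjusted p = 0.0157, under the fold threshold). Their mean level was 0.79, 0.42, 0.34 and 0.43 in wild type and 0.07 to 0.29 in Ttpa-/- arrays, so the groups lay apart, with wild-type replicate 1 the highest. Of 29 genes that microglia raise in disease, 3 were lower, Lpl, Lyz2, a lysozyme (-0.89), and Lilrb4, an inhibitory receptor (-1.18, or -0.99 and not called without wild-type replicate 1), with a median of -0.23. Reactive astrocyte genes gave 1 of 26 lower, the endotoxin co-receptor Cd14 (-0.66), with a median of -0.32. Their mean level was 1.29, 0.76, 0.61 and 0.41 in wild type and 0.34 to 0.54 in Ttpa-/- arrays. The call of Cd14 was lost when wild-type replicate 1 (-0.44), wild-type replicate 2 (-0.65) or Ttpa-/- replicate 3 (-0.51) was left out. Cd74, the invariant chain of MHC class II, was lower (-1.16), but not past the test without wild-type replicate 1 (-0.85), and was the only call among 38 MHC and interferon genes.

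Of 23 tested homeostatic microglia genes 2 were higher and 1 lower (median -0.08), where 3.02% of all probes were higher and 1.92% lower. The purinergic receptor P2ry12 (0.60) and the fructose transporter Slc2a5 (0.88) were higher and the phosphatase Ptprc (-1.09) was lower. Each lost its call without single arrays, P2ry12 reading 0.46 and Slc2a5 reading 0.54 without wild-type replicate 1 and Ptprc reading -0.47 without wild-type replicate 3. P2ry12 was also lost without wild-type replicate 2 (0.58) or Ttpa-/- replicate 4 (0.54), Slc2a5 without wild-type replicate 2 (0.81) or Ttpa-/- replicate 2 (0.83) or 4 (0.77), and Ptprc without Ttpa-/- replicate 2 (-1.06) or 3 (-0.93). Bergmann glia and astrocyte markers had no call among 21, although Etv5, a transcription factor of the Ets family, read 3.64 to 3.93 in wild type and 4.16 to 4.39 in Ttpa-/- arrays (0.52, adjusted p = 0.000568, under the fold threshold). The difference of Etv5 from the supplemented Ttpa-/- comparison did pass (1.0).

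The oligodendrocyte lineage gave 1 call of 29 for myelin and 2 of 18 for precursors, where 4.94% of all probes were called. Olig2, a lineage transcription factor, was higher (0.63), but not without wild-type replicate 1 (0.52). Gpr17, a receptor of differentiating precursors, was higher (0.68) with a difference of 1.71 from the supplemented Ttpa-/- comparison, yet its call was lost without any 1 of 7 arrays, with values of 0.52 to 0.74. Cacng4, an AMPA receptor auxiliary subunit, was lower (-0.77), and its call was lost without any 1 of 5 arrays (-0.79 to -0.54). Mean myelin gene levels were 1.85, 1.95, 2.33 and 2.58 in wild type and 2.17 to 2.46 in Ttpa-/- arrays, so they overlapped.

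**Figure D5:**
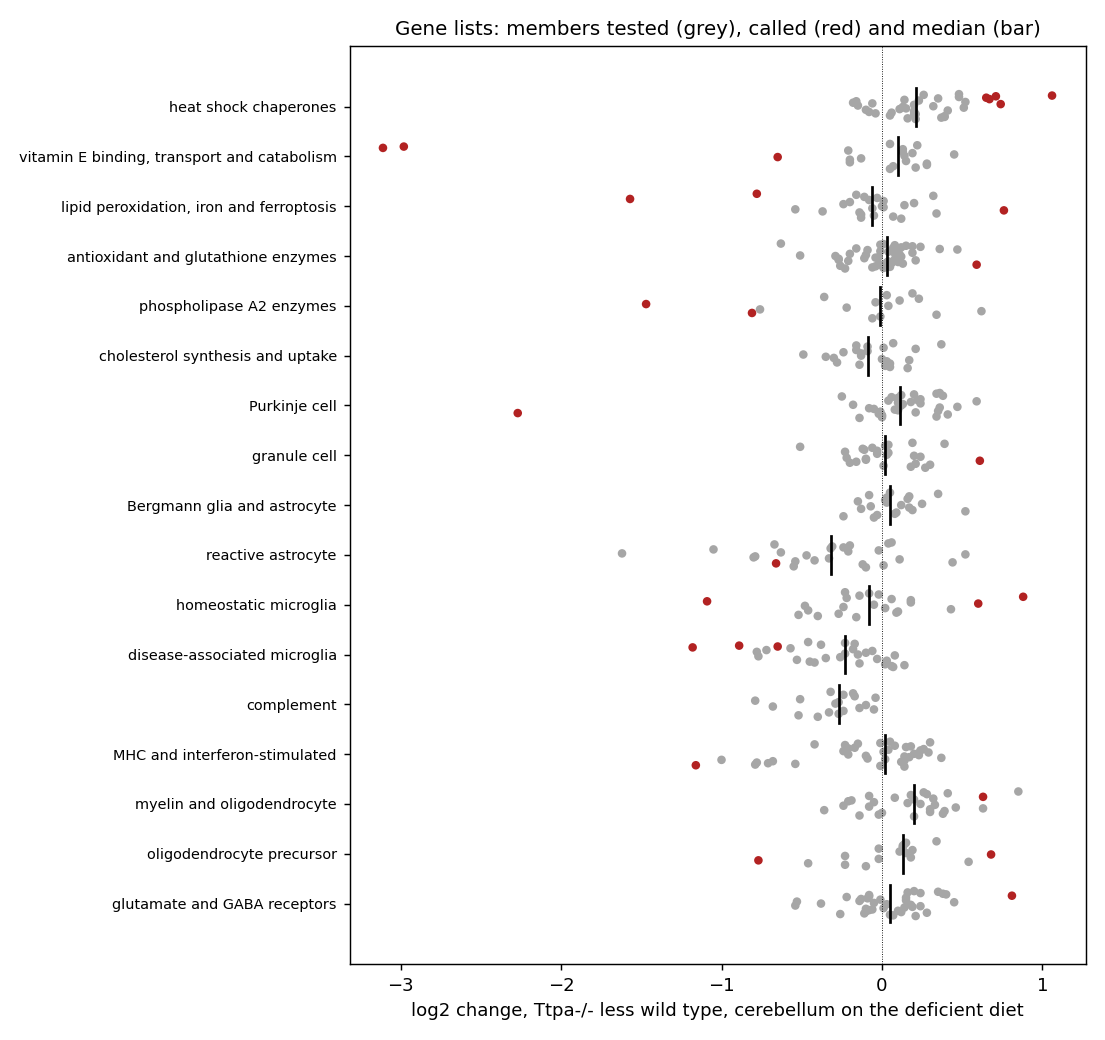
Log2 change (Ttpa-/- less wild type, deficient-diet cerebellum) of every tested member of 17 gene lists, grey for not called and red for called, with a bar at each list's median. The chaperone list has 5 red points on the right and a median of 0.21, and the complement list has all 18 points left of 0.

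Markers of cells outside the cerebellar tissue were also followed. No choroid plexus gene of 13 tested and no red cell gene of 10 was called, and of 19 meningeal and fibroblast genes Mgp, a mineral-binding matrix protein, was lower (-0.73, or -0.55 and not called without wild-type replicate 1). Of 10 tested lymphocyte genes 4 were called, where 4.94% of all probes were. The T cell receptor partner Cd4 (0.94, adjusted p = 0.00576), the protease Gzmk (0.63) and the B cell receptor chain Cd79a (0.70) were higher. Cd79b, the partner chain of Cd79a, was lower and above background in no Ttpa-/- array, at least 2.24-fold. Gzmk lost its call without wild-type replicate 4 (0.57), and Cd79a without Ttpa-/- replicate 2 (0.59) or wild-type replicate 3 (0.57). Of 28 endothelial and pericyte genes Kdr, the receptor of vascular endothelial growth factor, was higher (0.67, adjusted p = 0.00326), with 0.62 (adjusted p = 0.0689) on its other probe. Ctgf, a matrix protein on the forebrain neuron list, was lower (-0.92, adjusted p = 0.00368), the only call among 14 tested. The lists of cholesterol synthesis (23 tested), clock (19), immediate early (25) and brain stem neuron genes (7) gave no call.

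The genotype effect differed between cerebellum and cortex, by the test of the difference, at 253 of 31807 probes, 0.547% higher and 0.248% lower in cerebellum relative to cortex and 0.795% in all. Each of the groups compared lay on a different slide, so this difference and slide cannot be told apart. Same-numbered cortex and cerebellum arrays deviated together in 4 of 4 Ttpa-/- pairs (correlations of 0.156 to 0.494) and in 2 of 4 wild-type pairs (-0.086 to 0.436), and the labels do not say whether they share mice. With the number as a random block the count was 533. Beside Bex6, unmeasured in cortex, and Gm9372 (1.44), those with the smallest adjusted p and a higher effect in cerebellum were Gm2824 (1.11) and Hes2, a repressor of the Hairy family (1.09). Gm2824 changed by 1.13 in cerebellum, but its other probe was dim and gave -0.17. Those with a lower effect were Phka2, a regulatory subunit of phosphorylase kinase (-0.96), Fam116b (-1.10), Gmppa, of GDP-mannose synthesis (-0.82), and Ankrd52 (-0.78). For these the cerebellar values were -0.50, -0.40, -0.42 and -0.12 and the cortical ones 0.45, 0.70, 0.40 and 0.67, and the cerebellar value of Ankrd52 turned to 0.06 under median scaling. In the difference between the cerebellar comparisons, Hkdc1, a hexokinase-like enzyme, stood with Pla2g4e among the lower ones, at -0.77 on the deficient diet (adjusted p = 0.00639) and 0.85 in the other comparison (difference -1.62, adjusted p = 0.000626).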

How the data were processed

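Per the labels and the study's methods, total RNA was isolated with the mirVana kit, labelled with Cy3 and hybridised 1 sample to an array, with 4 mice per group. The authors scanned and quantified the arrays with Agilent Feature Extraction (version 10.1.1.1 per the labels, 10.7.3.1 per the file headers), applied a global normalization in R and used a fold change over 1.5 on the log2 scale. The deposited scanner files hold 62976 spots with a background-corrected intensity (processed signal) per spot and flags for control, outlier, saturated and above-background spots. The authors also deposited a table of log2 values, whose differences between arrays matched those of the scaled scanner intensities to a median of 0.00085. Of 61 columns of values, 44 were not used here.

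Control spots and outlier-flagged spots were left out, spots of 1 probe were averaged (55589 probes), and each array's log2 intensity was reduced by the log2 of its 75th percentile (signals of 503 to 721 in the 8 arrays). No probe was saturated. The 40 arrays of 10 groups were fitted with limma 3.58.1 in R 4.3.3 (lmFit and eBayes), 1 coefficient per group. Tests covered the probes that 1 of the compared groups or both held well above background on each of its 4 arrays, with Benjamini-Hochberg adjustment over all of them. Calls had a fold change over 1.5 at an adjusted p under 0.05. The fit was tested on simulated data. A group not above background on any array was given a bound, its higher value of signal or the lowest signal above background per array. A fitted change printed beside such a bound rests in part on signal not above background. Positions are those of the files (mm9). Symbols are the array's, and of 21919 RefSeq accessions 20594 matched the reference table. The number of arrays limits the precision.

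Named genes were Ttpa, the genes the study names, the 12 largest rises and falls by log2 change among called probes with a symbol and non-overlapping groups, called genes within 20 Mb of Ttpa, up to 4 called members a direction of each of 30 gene lists (or the 3 smallest p-values where none was called), and the 4 smallest adjusted p-values a direction in each test of a difference. The brightest probe stood for a gene of a list. The comparison, the members and the lists were chosen with earlier results of these data known. Alternatives were another scaling, background correction, filter, set of arrays, array weights, spots flagged, the authors' table, the methods' t-test, a block and each array left out. Some items are not reported here.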

Additional observations from a re-analysis of the deposited data

Results flagged for a closer look

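In 13 of 182 groups of 4 arrays, 1 array lay apart from its own group by Dixon's value, which chance alone gives in about 1 in 20 groups. Ttpa-/- replicate 4 was the array in 7 of them, all on chromosome 4, with 3.65 and 3.29 on the Car8 probes, -0.49 on Gm13298, 0.14 on Gm1987, -0.23 on 4933409K07Rik, -2.13 on LOC100503421 and 3.07 on Ccl27a, each nearer the wild-type arrays than the other 3. Ttpa-/- replicate 2 was the array for Cd79a (-1.76), Ctgf (1.31) and the second Ttpa probe (-2.67). That probe lies outside the comparisons made, and it was above background in this array and in no wild-type array of the deficient diet, and the cause was not tested. The others were Abhd3 in Ttpa-/- replicate 1 (-4.13), Etv5 in Ttpa-/- replicate 3 (4.16) and 4930412C18Rik in wild-type replicate 4 (-2.33).

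For some genes the genotype effect, which cannot be told apart from slide in either region, differed between cerebellum and cortex by the test of the difference itself (cerebellum less cortex, log2). It was higher in cerebellum for Bex6 (3.17), Ly6f (1.95), Cox17 (1.77), Barhl2 (1.75), Gm9372 (1.44), Rpl26-ps2 (1.38), Gm2824 (1.11) and Hes2 (1.09). On the deficient-diet cortex arrays Bex6, Ly6f and Barhl2 were never above background and Cox17 was on 1 only, so for these the cortical part of the difference was not measured. It was lower for Sec14l4 (-3.20), Necab1 (-1.87), Fam116b (-1.10), Phka2 (-0.96), Gmppa (-0.82) and Ankrd52 (-0.78). Sec14l4 was above background on no deficient-diet Ttpa-/- cerebellum array, so the size of its difference was not measured.

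For others the effect on the deficient diet differed from that between supplemented Ttpa-/- and normal-diet wild-type cerebellum (deficient diet less the other pair, log2). It was higher for Asb7 (3.08), Gpr17 (1.71), Sdf2l1 (1.61), Manf (1.28), Hsph1 (1.26), Hspa5 (1.14), Etv5 (1.0), Pdia6 (0.92) and Chac1 (0.86). It was lower for the chromosome 4 stretch, with Gm1987 (-6.69), Gm13298 (-6.44, -5.78 and -3.22), 4933409K07Rik (-5.72), LOC100503421 (-5.68), Gm13308 (-1.99), Ccl19 (-1.82 and -1.18), Ccl27a (-1.29, -1.25 and -1.46) and Creb3 (-1.05). It was also lower for the unplaced Gm3893 (-5.47 and -3.62), Pla2g4e (-2.73), Hkdc1 (-1.62), Ctgf (-1.05) and Tfrc (-0.99).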

How the results depend on the processing

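Genotype and slide cannot be told apart in the cerebellum or in deficient-diet cortex, and no fit with slide as a block was estimable. Of 73 called probes named in the text, 28 kept their call under every setting in which they were tested, and none reversed in any. The filter asking for signal above background on all arrays compared left only 54 of the 73 to test. The t-test of the methods and the counts as genes were not followed for single probes. Higher calls in deficient-diet cerebellum (923) numbered 1964 with median scaling, 1392 with quantile normalization, 448 with normexp and quantile normalization, 470 in a fit of the 8 arrays alone, 263 as genes and 315 by the methods' t-test after Benjamini-Hochberg adjustment (1053 before it). Lower calls (587) numbered 290, 300 with normexp, 99, 200 and 33 (807), in the same order without quantile normalization, and 1268 at an unadjusted p under 0.05 or 2044 by fold alone. The 8-array fit estimates the spread from fewer arrays.

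Cortex calls (891) numbered 372 with normexp and 1429 unadjusted. Region differences (253) numbered 114 with median scaling, 167 without the filter, 44 on their own arrays, 694 with array weights, 533 with the replicate number as a random block, 2209 unadjusted, 4404 by fold and 134 as genes. The supplemented comparison (1535) gave 653 with normexp. The difference of the cerebellar comparisons (849) gave 468 with median scaling, 224 on its own arrays, 430 on the 20 cerebellar arrays, 2305 unadjusted, 4178 by fold and 527 as genes. Diet calls were 526 unadjusted in Ttpa-/- (105), and 694 with quantile normalization and 1304 unadjusted in wild type (397). Ttpa changed by -0.58 with normexp, which raises dim signals. Calls near Ttpa (20) were 8 with normexp, 13 above background on all arrays, 10 on the 8 arrays, and 10 and 52 within 10 and 40 Mb.

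Leaving out each array gave 742 to 1012 higher and 305 to 1303 lower, cortex 487 to 1495, region difference 95 to 691, supplemented comparison 1013 to 1918, cerebellar difference 380 to 1123, diet 44 to 232 and 12 to 831, Ttpa -3.15 to -2.85, and 17 to 28 near Ttpa. Without both Ttpa-/- replicates 2 and 4, chosen after seeing the data, 774 were higher and 461 lower. Replicate numbers did not pair the mice of the genotypes (correlations of -0.182 to -0.007), and with them as a block 952 were higher and 684 lower, including 99.4% of the calls. The block gave 948 calls in cortex, 323, 1579, 920, 114 and 414 in the other comparisons in the order above, Ttpa at -2.98 and 19 calls near it.

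Signs turned only for uncalled genes. Pla2g5 turned to 0.14 with median scaling, 0.14 without Ttpa-/- replicate 1 and 0.08 without wild-type replicate 3. Gapdh turned to 0.14 with median scaling, 0.12 with quantile normalization, 0.08 with normexp and 0.01 without Ttpa-/- replicate 1. Ankrd52 turned to 0.06 with median scaling and 0.06 without Ttpa-/- replicates 2 and 4, Gm3448 to 0.06 and Pla2g6 to 0.00 without wild-type replicate 1. Over the arrays left out, Pla2g5 ran from -0.19 to 0.14, Gapdh from -0.07 to 0.01, Gm3448 from -0.42 to 0.06 and Pla2g6 from 0.00 to 0.17. The cause of these shifts was not tested.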
